A study of Homo sapiens with 24 samples.

Results

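The response to insulin-like growth factor (IGF) of A2780, a line of human ovarian cancer cells, was read by setting the 4 arrays titled as IGF treated against the 8 arrays titled as controls, which makes 12 of the 24 arrays of the study. Cells had been transfected with Rab25, a small GTPase of endosome recycling, or with pcDNA, the empty vector, and each line stands for 1 transfected line. The IGF arrays came from cells that received 10 ng/ml IGF after 8 h of serum starvation, with 1 array per line in each of 2 experiments. The starved arrays came from the same 2 lines after 8 h without serum and no growth factor, with 2 arrays per line in each experiment. EGF arrays, used further down, came from cells given 10 ng/ml EGF after the same starvation, again 1 per line and experiment. By the treatment protocol IGF was present for 8 h (experiment 1) or 24 h (experiment 2), but 24 h is what the source names state for both. How long the starved cells were kept beside the treated ones is not given, so IGF and the time spent without serum cannot be told apart. Nothing in the labels says that arrays of 1 line and experiment came from separate cultures, so the spread between such arrays may be technical. The p-values measure this spread together with differences between lines and experiments that the fit leaves unmodelled. For IGF against EGF, with 1 array of each per line and experiment, no spread between repeated arrays enters.

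IGF binds the IGF-1 receptor, a tyrosine kinase that signals through the insulin receptor substrates IRS1 and IRS2 to PI3K and AKT and through RAS to ERK. AKT keeps the FOXO transcription factors out of the nucleus, so that genes FOXO turns on during growth factor withdrawal fall when the pathway is active, and mTORC1 downstream of AKT raises translation of ATF4, the transcription factor of amino acid supply and stress. IGF signalling is a known growth and survival input of ovarian cancer cells.

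Values are the deposited log2 signals, read for 11940 genes through the probe set of highest mean over all 24 arrays. Array medians lay between 7.213 and 7.244 on IGF arrays and between 7.199 and 7.348 on starved arrays. RNA integrity was read from the actin control probe sets as 3' signal minus 5' signal, which ran from 0.656 to 0.985 on IGF arrays and from 0.685 to 1.168 on starved arrays, and it was lower with IGF in 4 of 4 line by experiment cells (mean difference -0.095, 2-sided exact permutation p = 0.309 over 81 arrangements); its part in the results was not tested. A cell here is 1 line in 1 experiment, with 1 IGF array and 2 starved arrays. The label was checked against markers: PAX8 (mean over 24 arrays 11.86), KRT8 (12.75) and VIM (15.19) were high, while EPCAM (5.25), CDH1 (5.50) and the immune marker PTPRC (5.35) lay low. DCN, a stromal marker, and CDH5, an endothelial one, were also high (12.01 and 11.09), with LUM, PECAM1 and CLDN5 at 5.07, 5.60 and 5.61. ENG, another endothelial marker, averaged 9.89 on IGF and 10.31 on starved arrays. These markers are a part of longer lists. The median level of the 14 ovarian epithelial and A2780 markers was 6.98 with IGF and 6.99 in starved cells. That of the 7 measured immune markers was 5.38 and 5.43.

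Cells given IGF had higher signals of amino acid and stress response genes such as CHAC1, DDIT4, ATF3 and ASNS than starved cells, and lower signals of CXCR4, IRS2, IGF1R, FOXO1 and further genes of growth factor withdrawal. By limma, with line and experiment as blocks, 983 of 11940 genes passed an adjusted p of 0.05, which is 8.23%, with 441 higher (3.69%) and 542 lower (4.54%). The shifts were small: the median size among called genes was 0.30 on the log2 scale, and only CHAC1, DDIT4 and CXCR4 passed and moved at least 2-fold. The median over all genes was -0.001. Centring each array on its median gave 516 higher and 403 lower, so falls were not the majority in that setting. Quantile normalization gave 444 higher and 532 lower. Of the called genes, 962 had 1 sign in all 4 cells. The calls came from these same arrays and the share over all genes is not given, so this count is a description. The IGF array lay above both starved arrays in all 4 cells for 402 of the called rises, and below both for 465 of the called falls. Over all genes, called or not, the IGF array lay above both starved arrays of its cell in all 4 cells for 6.54% and below both for 7.23%. Without the Rab25 IGF array of experiment 1 the count was 369, without the pcDNA IGF array of experiment 1 it was 441, and in a fit over all 24 arrays it was 323.

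CHAC1, a glutathione-degrading enzyme and a target of ATF4, showed the largest rise. Its signal with IGF was 10.83 and 9.90 in Rab25 cells of experiments 2 and 1, and 10.88 and 10.12 in pcDNA cells of experiments 2 and 1. The 8 starved arrays lay between 8.30 and 9.38 with a median of 8.97. All IGF arrays therefore lay above all starved arrays, and the gap was wider in experiment 2 than in experiment 1 in each line, a difference that did not pass (0.92, SE 0.23, limma adjusted p = 0.0739). The fitted change was 2.86-fold (log2 1.51, SE 0.17, limma adjusted p = 0.000526).

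CXCR4, the receptor of the chemokine CXCL12, showed the largest fall. It read 6.58 and 7.96 with IGF in Rab25 cells of experiments 2 and 1, and 6.70 and 8.06 in pcDNA cells of experiments 2 and 1. Starved Rab25 arrays read 9.64 and 9.99 in experiment 2 and 10.29 and 10.37 in experiment 1, and starved pcDNA arrays 8.36 and 8.52 in experiment 2 and 9.19 and 9.30 in experiment 1. The groups did not overlap: the IGF arrays of both lines were close to one another within an experiment, while starved Rab25 cells lay above starved pcDNA cells. The fit gave a 4.38-fold fall (log2 -2.13, SE 0.23, limma adjusted p = 0.000453), and the 2 other CXCR4 probe sets gave -1.54 and -1.40.

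IRS2, the adaptor that links the IGF-1 receptor to PI3K, read 10.77 and 11.19 in Rab25 IGF arrays of experiments 2 and 1, and 10.77 and 11.55 in those of pcDNA cells. Starved arrays stayed within 11.83 to 12.00, with a median of 11.91. No IGF array reached the starved range, and both arrays of experiment 2 lay lower than both of experiment 1. The fall was 1.79-fold (log2 -0.84, SE 0.11, limma adjusted p = 0.00144).

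**Figure D1:**
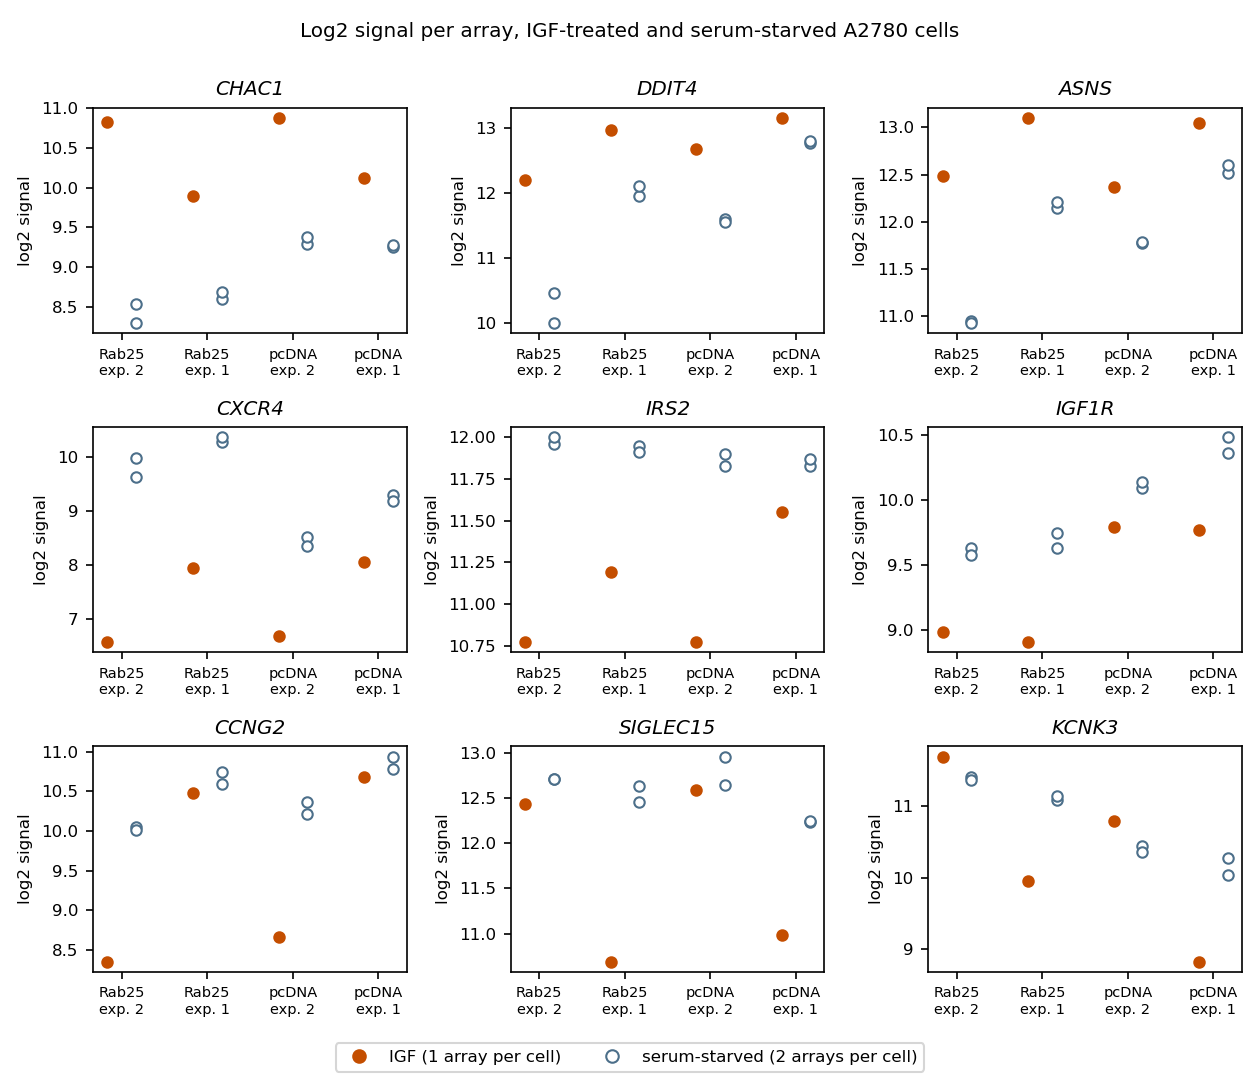
Log2 signal of 9 genes on each IGF array (filled) and each serum-starved array (open), by line and experiment (exp.), with the axis range set per gene. CHAC1, DDIT4 and ASNS lie higher with IGF than with starvation in every cell, CXCR4, IRS2 and IGF1R lower in every cell, and CCNG2, SIGLEC15 and KCNK3 show gaps that differ between the experiments.

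DDIT4, an inhibitor of mTORC1 also known as REDD1, read 12.20 and 12.97 in Rab25 IGF arrays of experiments 2 and 1, and 12.68 and 13.15 in pcDNA ones, against a starved range of 10.01 to 12.79 with a median of 11.78. The ranges over all arrays overlap, with starved cells of experiment 1 above those of experiment 2 in each line, but within each cell the IGF array lay above both starved arrays. Its rise was 2.13-fold (log2 1.09, SE 0.19, limma adjusted p = 0.00669). ASNS, which makes asparagine, read 12.48 and 13.10 in Rab25 and 12.37 and 13.05 in pcDNA IGF arrays of experiments 2 and 1, against 10.93 to 12.60 in starved arrays (log2 change 0.89, SE 0.13, limma adjusted p = 0.00274). Here too the pooled ranges overlap and the cells do not.

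The other named rises were smaller. ATF3, a stress-induced transcription factor, rose by 0.92 on the log2 scale (SE 0.12) and DDIT3, the factor CHOP, by 0.71 (SE 0.10). PSAT1 of serine synthesis rose by 0.83 (SE 0.13) and PCK2, the mitochondrial phosphoenolpyruvate carboxykinase, by 0.68 (SE 0.11). UPP1, which cleaves uridine, rose by 0.92 (SE 0.11). The chemokine genes CXCL3 and CXCL2 rose by 0.89 (SE 0.18) and 0.85 (SE 0.09), and PTX3, a secreted pattern recognition protein, by 0.70 (SE 0.09). TAGLN, an actin-binding protein of smooth muscle, rose by 0.95 (SE 0.18), with cell values of 1.77 and 1.25 in Rab25 cells and 0.48 and 0.30 in pcDNA cells. SYBU, which links cargo to kinesin, rose by 0.85 (SE 0.08), EFNB2, an ephrin ligand, by 0.83 (SE 0.15), and TIMP4, a metalloproteinase inhibitor, by 0.70 (SE 0.14).

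Among the falls, ADAMTS5, an aggrecan-cleaving protease, changed by -0.93 (SE 0.13), PTCH1, the Hedgehog receptor, by -0.88 (SE 0.12) and KCNJ2, an inward rectifier potassium channel, by -0.86 (SE 0.12). The 2 other PTCH1 probe sets gave -0.17 and 0.02. DKK1, a secreted WNT antagonist, fell by 0.86 (SE 0.14), FRAT2, which binds GSK3, by 0.79 (SE 0.16) and DAAM1, a formin of planar polarity signalling, by 0.77 (SE 0.10). RGCC, a cell cycle regulator, fell by 0.84 (SE 0.08) and EVI2A by 0.87 (SE 0.09). CDH5, the cadherin VE-cadherin, fell by 0.77 (SE 0.15). GMFG, an actin disassembly factor, fell by 0.80 (SE 0.23, limma adjusted p = 0.0496), with a cell value of -2.06 in Rab25 cells of experiment 1 and of -0.10 in those of experiment 2, and its call was lost on leaving out any of 10 of the 12 arrays. The remaining members of the 15 largest falls, CCNG2, SIGLEC15 and HBP1, differed between the experiments and are described there.

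**Figure D2:**
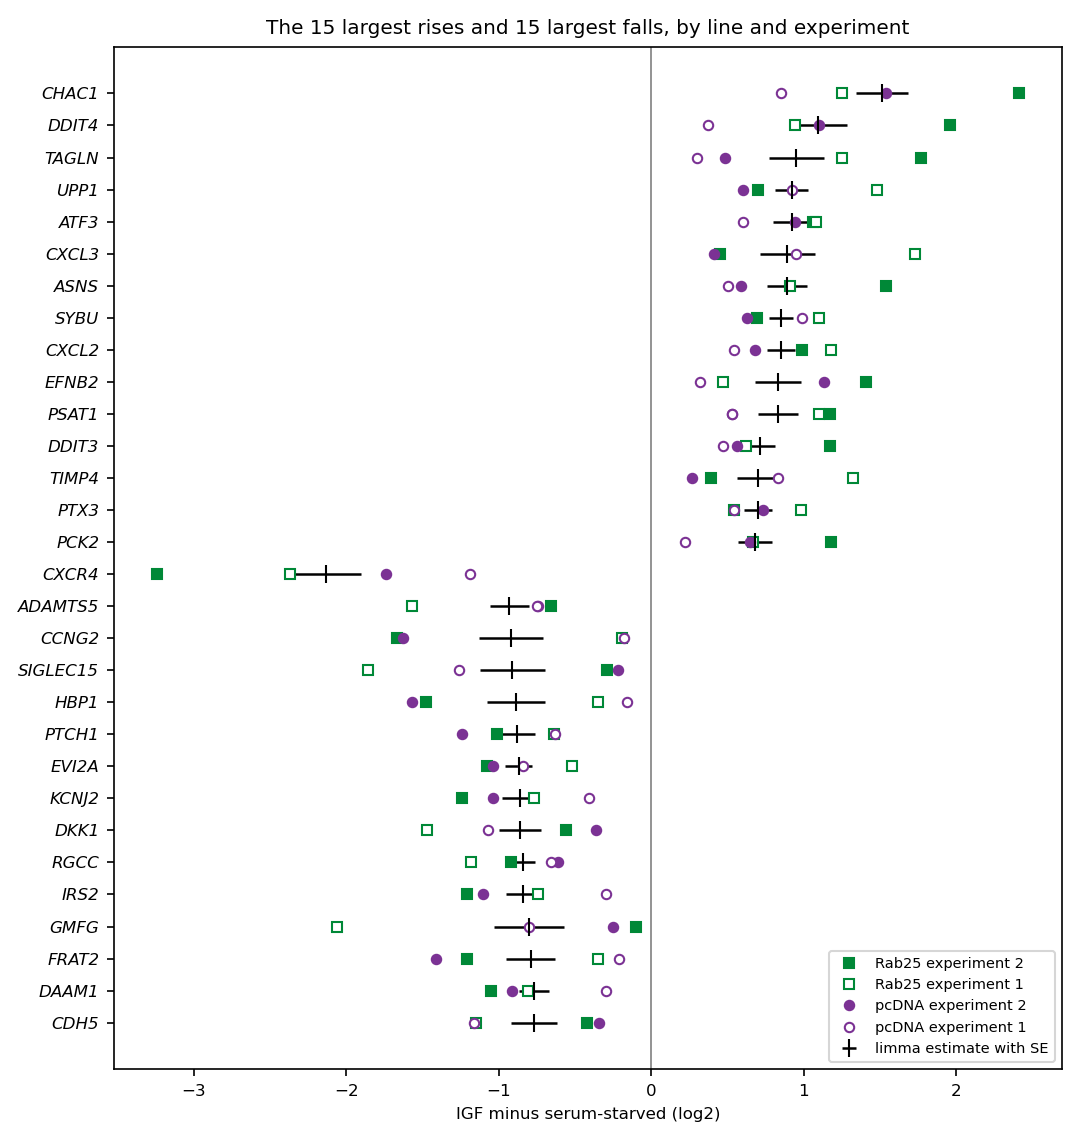
Log2 difference, IGF minus serum-starved, of the 15 largest called rises and 15 largest called falls with 1 sign in all 4 cells; coloured markers give the 4 line by experiment cells and black ticks the fitted change, with lines of 1 SE. CXCR4 lies farthest left at -2.13 and CHAC1 farthest right at 1.51, and the experiments separate for CCNG2, HBP1 and SIGLEC15.

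In the IGF axis IGF1R, IRS2, GRB10, SOCS1 and IGFBP6 passed. IGF1R, the receptor, read 8.99 and 8.91 in Rab25 and 9.79 and 9.77 in pcDNA IGF arrays of experiments 2 and 1, against 9.58 to 9.75 in starved Rab25 arrays and 10.09 to 10.48 in starved pcDNA arrays. Within each line no IGF array overlapped the starved arrays, and the fall was 1.51-fold (log2 -0.59, SE 0.07, limma adjusted p = 0.000591). The 2 other IGF1R probe sets gave -0.36 and 0.06. GRB10, an adaptor that restrains the receptor, rose by 0.33 (SE 0.05). SOCS1, a feedback inhibitor of cytokine signalling, fell by 0.48 (SE 0.08), with 3 other probe sets from -0.20 to -0.00, and IGFBP6, a binding protein that prefers IGF2, fell by 0.30 (SE 0.08), a call lost on leaving out any of 7 arrays. Of the 30 measured genes of the axis 1 rose and 4 fell, against 3.69% and 4.54% of all genes, with a median of -0.04 against -0.001 over all genes. In the fit over all 24 arrays 0 rose and 2 fell. The ligand genes had low signals in both groups: IGF1 averaged 5.65 ± 0.19 with IGF and 5.77 ± 0.15 in starved cells, IGF2 5.75 ± 0.13 with IGF and 5.80 ± 0.07 in starved cells (SD, n = 4 and 8). The insulin receptor INSR was as low (5.50 and 5.61), and IGF2R, which clears IGF2, high in both (11.54 and 11.60). IGFBP1, a FOXO target in liver, had a change of -0.54 that did not pass (limma adjusted p = 0.218).

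FOXO1, itself a FOXO target, read 9.55 and 9.04 in Rab25 and 9.19 and 9.05 in pcDNA IGF arrays of experiments 2 and 1, against 9.58 to 10.46 in starved arrays with a median of 9.97. All IGF arrays lay below all starved arrays (log2 change -0.76, SE 0.12, limma adjusted p = 0.00395). In the list of FOXO and growth factor withdrawal genes, 17 of 34 measured members fell and 2 rose, with a median of -0.18 against -0.001 over all genes and 4.54% falling there. Beside IRS2, IGF1R and FOXO1, the falls took in TXNIP, an inhibitor of thioredoxin and glucose uptake (-0.62, SE 0.15), CITED2, a transcriptional coregulator (log2 -0.56), PIK3IP1, which inhibits PI3K (log2 -0.51), RBL2, a pocket protein of quiescence (-0.49, SE 0.08), and CDKN1B, the CDK inhibitor p27 (-0.36, SE 0.09). In pcDNA cells of experiment 1 the IGF array lay between the starved arrays for TXNIP (10.30 against 10.16 and 10.32). The same held there for CDKN1B (11.44 against 11.40 and 11.66). GADD45A and MAP1LC3B rose, by 0.35 (SE 0.07) and 0.28 (SE 0.08). In pcDNA cells of experiment 2 MAP1LC3B read 12.19 with IGF, between its starved arrays at 12.22 and 12.12. The falls numbered 10 in the fit over all 24 arrays, 9 to 15 on leaving out single arrays and 9 in each experiment alone; the lowest single-array counts were 9 without the Rab25 IGF array of experiment 1, 10 without that of experiment 2 and 11 without the pcDNA IGF array of experiment 2. The list's median was -0.16 in experiment 2 and -0.20 in experiment 1.

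In the wider list of PI3K, AKT and mTOR genes 4 of 32 rose and 3 fell, against 3.69% and 4.54% of all genes, with a median of 0.00. The rises were DDIT4, TRIB3, a pseudokinase induced by ATF4 that binds AKT (log2 0.62, SE 0.10), EIF4EBP1, a translation repressor that mTORC1 inactivates (log2 0.33, SE 0.07), and EIF4E, the cap-binding protein (log2 0.22, SE 0.06). The falls were PIK3IP1, SESN1, an inhibitor of mTORC1 (log2 -0.46, SE 0.12), and SGK1, a kinase related to AKT (log2 -0.30, SE 0.08). Members that restrain the pathway thus stood in both directions. The rises numbered 2 without the IGF array of experiment 1 of either line, and the falls 1 without either Rab25 IGF array, starved pcDNA array 1-1 or starved Rab25 array 2-1. In the fit over all 24 arrays 1 rose and 2 fell.

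The ATF4 and amino acid response list had 24 of its 37 measured members higher and 0 lower, with a median of 0.39 against -0.001 over all genes and 3.69% rising there. ATF4 itself rose by 0.18 (SE 0.05). The transporters SLC7A5, SLC3A2, its partner chain, and SLC1A5 rose by 0.67, 0.62 and 0.39, and CEBPG, a partner of ATF4, by 0.66. Enzymes of serine and one-carbon metabolism in the list, PHGDH, PSPH and MTHFD2, rose by 0.43, 0.33 and 0.37. Median changes by cell were 0.61 and 0.51 in Rab25 cells of experiments 2 and 1 and 0.28 and 0.24 in pcDNA cells of experiments 2 and 1. The rises numbered 5 in the fit over all 24 arrays and 15 to 22 on leaving out single arrays, with 15 without the Rab25 IGF array of experiment 1.

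Promoter windows of 4 risen genes that hold the ATF4 response element TGATGNAA are shown, 3 of the ATF4 list (CHAC1, ASNS and SLC3A2) and 1 of the tRNA synthetases described next (MARS1). They are RefSeq windows of 250 bases before to 50 after the gene start on GRCh38.p14, read along the gene's strand, with the match in capitals on either strand: CHAC1 at chr15:40953221-40953520 on the plus strand, ASNS at chr7:97872359-97872658 on the minus strand, SLC3A2 at chr11:62881449-62881748 on the plus strand and MARS1, the methionyl-tRNA synthetase, at chr12:57487818-57488117 on the plus strand. The matches start 209 bases before the gene start for CHAC1, 68 before it for ASNS, 4 before it for MARS1 and 37 after it for SLC3A2. The motif joins an ATF half-site to a C/EBP half-site, so sites of C/EBP factors can overlap it.
CHAC1: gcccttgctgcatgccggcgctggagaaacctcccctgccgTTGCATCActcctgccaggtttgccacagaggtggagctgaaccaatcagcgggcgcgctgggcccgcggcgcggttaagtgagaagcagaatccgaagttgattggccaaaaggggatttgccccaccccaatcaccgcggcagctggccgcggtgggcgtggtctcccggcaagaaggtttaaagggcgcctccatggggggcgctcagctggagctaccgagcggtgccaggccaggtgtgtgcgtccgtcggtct
ASNS: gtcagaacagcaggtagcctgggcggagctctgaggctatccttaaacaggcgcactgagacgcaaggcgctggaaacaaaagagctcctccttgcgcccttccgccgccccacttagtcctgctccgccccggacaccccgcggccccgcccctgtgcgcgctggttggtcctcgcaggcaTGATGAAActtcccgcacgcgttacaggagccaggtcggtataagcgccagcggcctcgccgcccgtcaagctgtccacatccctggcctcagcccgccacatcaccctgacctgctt
SLC3A2: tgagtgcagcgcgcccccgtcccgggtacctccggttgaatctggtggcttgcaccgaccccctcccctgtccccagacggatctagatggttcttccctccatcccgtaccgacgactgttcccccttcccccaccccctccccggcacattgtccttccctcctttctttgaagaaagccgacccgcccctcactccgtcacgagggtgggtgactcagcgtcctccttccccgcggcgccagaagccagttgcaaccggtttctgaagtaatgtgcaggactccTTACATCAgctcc
MARS1: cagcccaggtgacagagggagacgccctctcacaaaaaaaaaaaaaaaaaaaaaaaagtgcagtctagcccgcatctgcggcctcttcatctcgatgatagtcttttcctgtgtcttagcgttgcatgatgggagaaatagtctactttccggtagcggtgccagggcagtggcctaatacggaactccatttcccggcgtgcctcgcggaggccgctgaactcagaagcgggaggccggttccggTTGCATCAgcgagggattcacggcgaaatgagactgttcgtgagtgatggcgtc
Searched on both strands, TGATGNAA stood in 20 of 373 called rises with a window (5.36%), in 8 of 442 called falls (1.81%), in 214 of 9593 measured genes (2.23%) and in 1003 of 27305 RefSeq windows (3.67%). Within the ATF4 list it stood in 5 of 21 called members and in 3 of 10 members not called, so its share was no higher in the called ones. These matches describe letters in the window and no binding was measured.

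Genes of translation also rose. Of 18 cytosolic tRNA synthetases, which charge tRNAs with amino acids, 8 rose and 0 fell, against 3.69% of all genes rising, with a median of 0.19. GARS1, WARS1 and MARS1 rose by 0.37, 0.39 and 0.33. Of 43 ribosome biogenesis and MYC target genes 16 rose and 0 fell, against the same share, with a median of 0.22. NOP2, a nucleolar RNA methyltransferase, read 11.06 and 10.39 in Rab25 and 11.16 and 10.60 in pcDNA IGF arrays of experiments 2 and 1, against 10.08 to 10.53 in starved arrays. It was above both starved arrays in all 4 cells, although the Rab25 IGF array of experiment 1 lay below all starved arrays of experiment 2 (log2 change 0.44, SE 0.07, limma adjusted p = 0.00289). DDX21, a nucleolar helicase, rose by 0.41, SRM, which makes spermidine, by 0.31 (SE 0.06), and ODC1, the first enzyme of polyamine synthesis, by 0.22 (SE 0.05). In the fit over all 24 arrays 2 synthetases and 9 ribosome biogenesis genes rose. Without the Rab25 IGF array of experiment 1 5 synthetases and 9 ribosome biogenesis genes rose, and without that of experiment 2 9 ribosome biogenesis genes rose. The MYC E-box CACGTG stood in the promoters of 4 of 12 called and 7 of 24 uncalled ribosome genes, against 9.3% of measured genes.

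Lists of growth metabolism and the cell cycle were read against the same shares of 3.69% rising and 4.54% falling. HK2, a hexokinase, was the 1 gene of 29 in glycolysis and the pentose phosphate pathway to rise (log2 change 0.49, other probe set 0.15). Of 23 nucleotide synthesis genes 5 rose, among them CTPS1, the CTP synthetase (log2 0.43), and UCK2, a uridine kinase (log2 0.33); without the Rab25 IGF array of experiment 1 the list had 3 rises. None of 26 cholesterol and fatty acid synthesis genes passed, with a median of -0.02. CDC6 and CDC25A, which act at the start of S phase, rose by 0.49 and 0.38. CDKN1C, the CDK inhibitor p57, fell by 0.69 (5 other probe sets from -0.32 to -0.06), and 32 of 35 G1/S genes did not pass. These calls were lost on leaving out any of 6 (CDC6), 2 (CDC25A) and 2 (CDKN1C) of the 12 arrays. Leaving out single arrays gave 0 to 5 rises and 0 to 2 falls in the G1/S list. No G2/M gene of 30 passed, with 26 negative values and a median of -0.11; with a block for each line by experiment cell 9 of them fell.

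Of 23 NF-kB targets 11 rose and 0 fell, against 3.69% of all genes rising, with a median of 0.30. IL6 rose by 0.67 (SE 0.13), the chemokine gene CCL20 by 0.61, the cytokine gene IL1A by 0.47 (other probe set -0.01), CXCL8 by 0.44 (SE 0.10) and the feedback inhibitor TNFAIP3 by 0.45 (SE 0.09). Only 3 of these targets rose in the fit over all 24 arrays. Of 24 ERK immediate-early and feedback genes 6 rose and 3 fell, against 3.69% and 4.54% of all genes: HBEGF, a ligand of the EGF receptor, rose by 0.67 (2 other probe sets 0.01 and 0.75), while DUSP4, an ERK phosphatase, fell by 0.59 and the transcription factor ETV1 by 0.52. The rises numbered 1 without the Rab25 IGF array of experiment 2, 3 without the pcDNA IGF array of experiment 2 and 2 without that of experiment 1, and 2 with 0 falls in the fit over all 24 arrays. Heat shock chaperones had 4 rises of 23 and unfolded protein response genes 3 of 22, XBP1 among them at 0.35, against 3.69% of all genes. Each count was 1 without the Rab25 IGF array of experiment 1; that of the chaperones was also 1 without the pcDNA IGF array of experiment 1 and 2 without any of 6 other arrays, and that of the unfolded protein response 1 without the Rab25 IGF array of experiment 2 and 0 in the fit over all 24 arrays.

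Of 23 WNT genes 4 fell, against 4.54% of all genes, including DKK1 and FZD2, a WNT receptor whose adjusted p was the lowest of all genes, level with SYBU and RGCC (log2 -0.60, SE 0.05, limma adjusted p = 0.000326). Of 24 developmental transcription factors 4 fell, SOX17 by 0.76 and SOX4 by 0.57 (4 other probe sets from -0.61 to 0.01), and 1 fell without the pcDNA IGF array of experiment 1. Of 37 matrix and protease genes 5 fell, among them ADAMTS5 and LAMB1, a laminin chain (log2 -0.36), and 1 rose, TIMP4. The matrix falls numbered 1 without the Rab25 IGF array of experiment 1, 2 without the pcDNA one of experiment 1, 3 without the Rab25 IGF array of experiment 2 or starved arrays pcDNA 2-2, Rab25 1-1 or Rab25 1-2, and 8 without the pcDNA IGF array of experiment 2. Without that last array 7 WNT genes fell. In the fit over all 24 arrays 2 WNT genes, 1 developmental factor and 1 matrix gene fell. EPHA4, an ephrin receptor, fell by 0.66 beside the rise of EFNB2. In the marker lists KRT7, KRT18 and MSLN of 14 ovarian epithelial and A2780 markers fell, FAP of 7 stromal markers and CDH5 and ENG of 7 endothelial markers, and 0 of 7 immune markers passed. The counts of the developmental, matrix and marker lists likewise stand against 4.54% of all genes falling and 3.69% rising. Lists of 7 genes are too small to be read against these shares. The calls were lost on leaving out any of 8 (KRT7), 8 (KRT18), 9 (MSLN), 10 (ENG) and 3 (FAP) of the 12 arrays, 0 epithelial markers fell in the fit over all 24 arrays, and the other probe sets of KRT7 and ENG gave -0.05 and 0.02. Array means of the endothelial list ran from 6.82 to 7.42 with IGF and from 7.06 to 7.65 in starved cells. Those of the stromal list ran from 7.74 to 7.86 with IGF and from 7.80 to 7.95 in starved cells. The part of these markers in the results was not tested. All samples were cultures of the A2780 line. Fewer A2780 cells with these RNAs and less RNA per cell cannot be told apart in such samples.

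**Figure D3:**
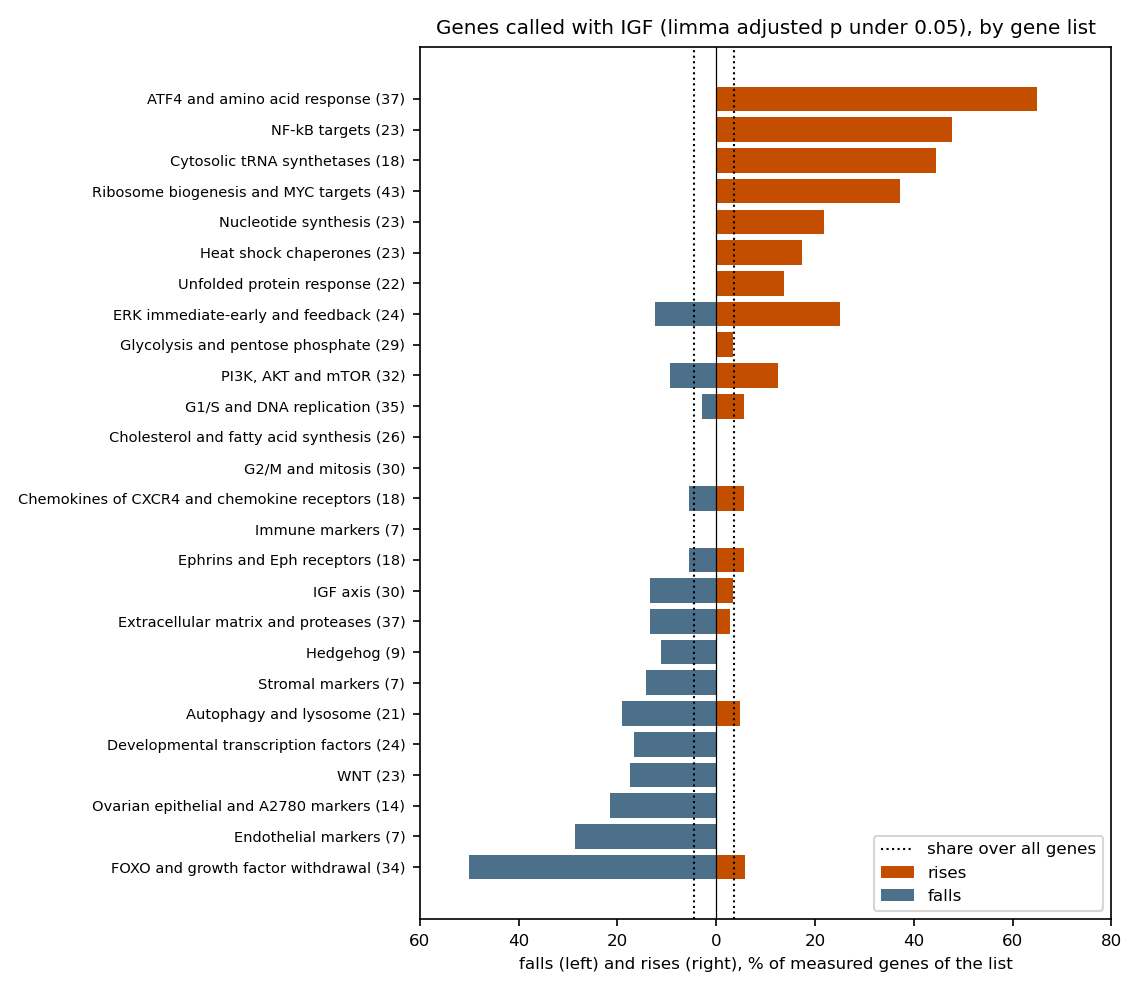
Share of the measured genes of each list, in %, called higher or lower with IGF than in serum-starved cells at a limma adjusted p under 0.05. Dotted lines give the shares over all genes. Counted in genes, the ATF4 list has 24 rises and 0 falls and the FOXO list 2 rises and 17 falls. The cholesterol and G2/M lists have neither.

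The next comparison asked whether the response differed between Rab25 and pcDNA cells. The leading genes had larger values in Rab25 cells: CXCR4 changed by -2.80 in Rab25 and -1.46 in pcDNA cells, ASNS by 1.23 in Rab25 and 0.54 in pcDNA cells, and DDIT4 by 1.45 in Rab25 and 0.74 in pcDNA cells. None of these differences passed, and of all genes 0 did (0.0%) by limma's interaction term. At an unadjusted p under 0.05 there were 473 of 11940 genes, a share below 0.05. SOX17, an endoderm and Müllerian transcription factor, had the lowest adjusted p (0.103, limma). It read 7.33 and 7.70 in Rab25 IGF arrays of experiments 2 and 1 against 8.58 to 8.80 in starved Rab25 arrays, and 7.15 and 7.34 in pcDNA IGF arrays against 7.48 to 7.62 in starved pcDNA arrays. The IGF arrays of the lines lay closer together than their starved arrays. Its change was -1.19 in Rab25 and -0.32 in pcDNA cells, a difference of -0.87 (SE 0.11).

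The responses were then compared between the experiments. By limma's interaction term the response of 194 genes (1.62%) differed, 118 with a higher value in experiment 2 (0.988%) and 76 with a lower one (0.637%), and the sign of the response was opposite in the experiments for 117 of them. With arrays centred on their medians the split was 76 higher and 85 lower. Of the genes called over both experiments, 60 were among them. The number was 35 without the Rab25 IGF array of experiment 1, 61 without that of experiment 2 and 67 without the pcDNA IGF array of experiment 2. Exposure and everything else that set the experiments apart cannot be told apart.

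Members of the FOXO list went both ways. FOXO1 changed by -0.43 in experiment 2 and -1.09 in experiment 1, IGF1R by -0.47 and -0.72 and PIK3IP1 by -0.30 and -0.72 in that order, and none of these differences passed. CCNG2, HBP1 and IRS2 passed with the larger fall in experiment 2, and 1 other member of the list passed with the higher value in experiment 2. CCNG2, an unconventional cyclin of growth arrest, read 8.35 in Rab25 and 8.66 in pcDNA IGF arrays of experiment 2, against 10.01 to 10.37 in starved arrays of that experiment, and 10.48 and 10.68 with IGF in experiment 1 against 10.59 to 10.94 in its starved arrays. The fall of 1.65 in experiment 2 stood against 0.19 in experiment 1 (difference -1.47, SE 0.10, limma adjusted p = 8.92e-05). HBP1, a repressor of cell cycle genes, read 8.55 in Rab25 and 8.48 in pcDNA IGF arrays of experiment 2, against 10.00 to 10.09 in its starved arrays, and 10.06 and 10.31 with IGF in experiment 1 against 10.37 to 10.56 in its starved arrays. Its difference was -1.27 (SE 0.11, limma adjusted p = 0.000434), but its other probe set gave -0.04 for the response over both experiments. IRS2 had a difference of -0.63, and FRAT2, which is not in the list, of -1.03.

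HBP1 is shown as a fallen gene with a FOXO motif, GTAAACA, in capitals, in its RefSeq window on GRCh38.p14 at chr7:107168753-107169052, plus strand, 173 bases before the gene start.
HBP1: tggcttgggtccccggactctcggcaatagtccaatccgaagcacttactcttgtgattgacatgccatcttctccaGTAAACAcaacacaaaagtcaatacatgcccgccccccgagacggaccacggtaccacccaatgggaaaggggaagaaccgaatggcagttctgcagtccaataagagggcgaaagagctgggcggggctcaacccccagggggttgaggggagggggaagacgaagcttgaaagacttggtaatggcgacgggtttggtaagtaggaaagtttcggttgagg
Searched on both strands, GTAAACA stood in 25 of 442 called falls with a window (5.66%), in 8 of 373 called rises (2.14%), in 238 of 9593 measured genes (2.48%) and in 931 of 27305 RefSeq windows (3.41%). In the FOXO list it stood in 3 of 17 called and 2 of 13 uncalled members. The motif is also read by other forkhead factors.

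A further group moved mainly in experiment 1. SIGLEC15, a sialic acid-binding lectin, read 12.43 in Rab25 and 12.59 in pcDNA IGF arrays of experiment 2 against 12.65 to 12.96 in its starved arrays, and 10.69 and 10.98 with IGF in experiment 1 against 12.24 to 12.64 in its starved arrays (difference 1.31, SE 0.19, limma adjusted p = 0.00682). LCN2, an iron-carrier protein of innate defence, read 6.41 in Rab25 and 6.27 in pcDNA IGF arrays of experiment 2 against 6.22 to 6.57 in its starved arrays, where the groups overlapped. In experiment 1 it read 9.25 and 8.62 with IGF against 7.19 to 7.33 in starved arrays, with no overlap (difference -1.72, SE 0.20, limma adjusted p = 0.00283). AKR1C1, an aldo-keto reductase, had changes of -0.09 in experiment 2 and 1.40 in experiment 1, and SPP1, the matrix protein osteopontin, of 0.02 in experiment 2 and 1.51 in experiment 1. KRT7, DKK1 and IRS1, an adaptor of the IGF-1 receptor, had the more negative values in experiment 1, with differences of 0.85, 0.81 and 0.75.

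For KCNK3, a potassium leak channel, the sign turned. It read 11.70 in Rab25 and 10.80 in pcDNA IGF arrays of experiment 2, against 11.37 to 11.41 in starved Rab25 and 10.36 to 10.44 in starved pcDNA arrays. In experiment 1 it read 9.95 and 8.82 with IGF, against 11.09 to 11.15 in starved Rab25 and 10.03 to 10.27 in starved pcDNA arrays. IGF arrays lay above their starved arrays in experiment 2 and below them in experiment 1, with changes of 0.36 and -1.25 (difference 1.60, SE 0.11, limma adjusted p = 8.92e-05). ZEB1, a repressor of epithelial genes, had changes of 0.41 in experiment 2 and -1.07 in experiment 1, VIPR1, a receptor of vasoactive intestinal peptide, of 0.25 and -1.07, and GBP1, an interferon-induced GTPase, of 0.92 and -0.30. For the response over both experiments the 2 other ZEB1 probe sets gave 0.04 and 0.14, against -0.33 for the one read here. VIPR1 changed by 0.61 in Rab25 and -0.10 in pcDNA cells of experiment 2. Its sign therefore did not turn in pcDNA cells, where experiment 1 gave -1.15.

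**Figure D4:**
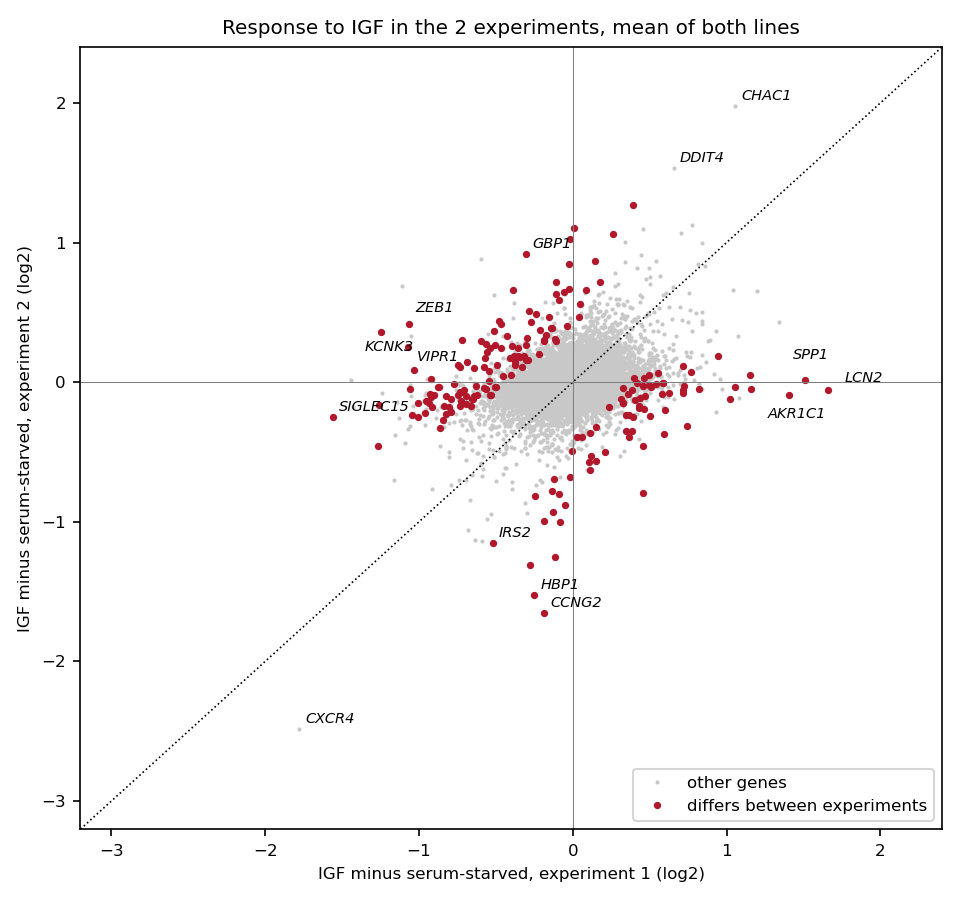
Log2 difference, IGF minus serum-starved, in experiment 2 (vertical) against experiment 1 (horizontal), as the mean of both lines, for 11940 genes, with the 194 genes whose response differed between experiments in red and a dotted line of equal response. CHAC1, DDIT4 and CXCR4 lie far out in both experiments, CCNG2 and HBP1 low on the vertical axis, and LCN2, AKR1C1 and SPP1 far right near 0 on the vertical axis.

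IGF was last set directly against EGF, a growth factor of another receptor, on 4 IGF and 4 EGF arrays. CHAC1 read 10.83, 9.90, 10.88 and 10.12 on IGF arrays of Rab25 experiments 2 and 1 and pcDNA experiments 2 and 1, and 10.29, 9.20, 10.42 and 9.58 on the EGF arrays of the same cells. IGF was higher in 4 of 4 cells (log2 0.56, SE 0.07, limma adjusted p = 0.338). CXCR4 read 6.58, 7.96, 6.70 and 8.06 with IGF and 7.49, 9.43, 6.98 and 9.03 with EGF in that order, lower with IGF in 4 of 4 cells (log2 -0.91, SE 0.15, limma adjusted p = 0.379). IRS2 gave -0.38 (SE 0.07). No gene passed (0.0%), with 1014 at an unadjusted p under 0.05, and the 4 residual degrees of freedom limit what could pass. A p above the threshold does not show that IGF and EGF act alike. The values of IGF minus EGF were positive for 33 of 37 ATF4 list genes (median 0.12), 38 of 43 ribosome biogenesis genes (median 0.07) and 7 of 34 FOXO list genes (median -0.14), with a median of -0.002 over all genes; the IGF arrays are also those behind the changes against starved cells.

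**Figure D5:**
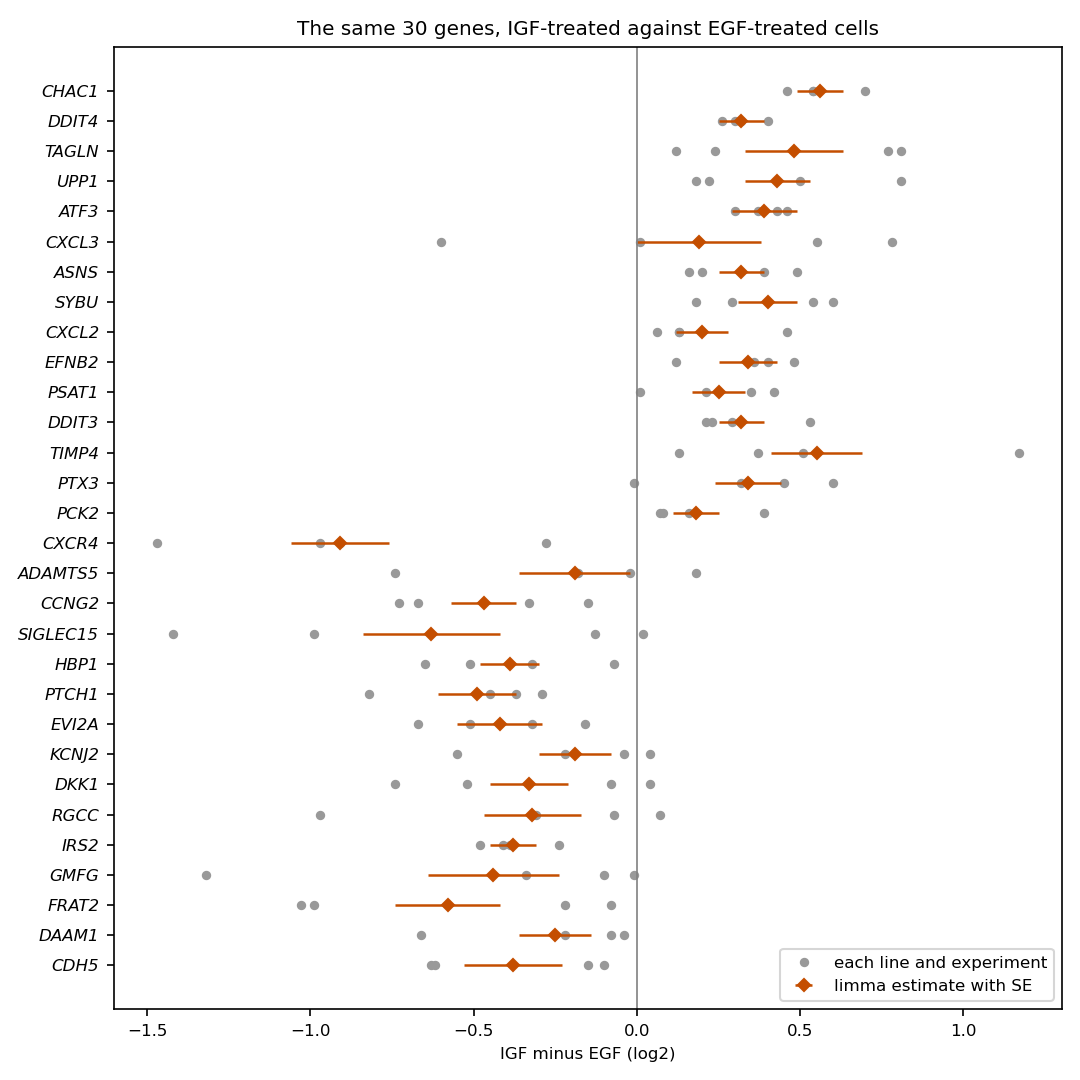
Log2 difference, IGF minus EGF, of the genes with the largest changes between IGF and starved cells, with the fitted value (diamond) and lines of 1 SE, and the 4 line by experiment cells as grey points. CHAC1 lies at 0.56 and CXCR4 at -0.91, and none passed the adjusted p of 0.05.

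In a fit over all 24 arrays, where all treatments share the starved arrays, CHAC1 changed by 0.96 with EGF, 0.19 with TGF beta (5 ng/ml) and -1.95 with FBS (5%), and DDIT4 by 0.77, -0.04 and -1.80 in that order. CXCR4 changed by -1.22 with EGF, 0.92 with TGF beta and -1.23 with FBS, and IRS2 by -0.46, -0.12 and -0.92. CHAC1 and DDIT4 thus had values of opposite sign with IGF and with serum, while CXCR4 and IRS2 had negative values with both.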

How the data were processed

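Total RNA of 24 samples was hybridised to Affymetrix expression arrays, and the authors deposited log2 signals per probe set. The submitters' processing notes name MAS5 and RMA, with no role or order, so the scaling is not known step by step; precision is limited by the number of arrays. Of 22930 probe sets, 524 were controls, 19415 had 1 gene symbol, 125 several and 2866 none in the platform annotation. The probe set of highest mean over 24 arrays stood for each of 11940 genes.

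Genes were fitted with limma 3.58.1 in R 4.3.3 (lmFit, eBayes) on 12 arrays with terms for line, experiment and IGF (8 residual and 4.36 prior degrees of freedom). Interaction terms tested lines and experiments (7 residual degrees of freedom), and IGF was set against EGF on 8 arrays (4). P-values were adjusted by the method of Benjamini and Hochberg over the whole set of genes, with a threshold of 0.05. The source names state the experiment of each array, and the deviations between experiments of the 4 groups correlated over genes at r = 0.66 to 0.83, so experiment was kept as a block. The fits were tested on simulated data.

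Named were CHAC1, CXCR4 and IRS2, the 15 largest called rises and falls with 1 sign in all 4 cells, the measured IGF axis, up to 5 called members of each list by p, and up to 5 genes each way of each difference; other list members were named after their values were seen. The members and the 26 lists (602 of 665 genes measured) were chosen with earlier results of these data known. Alternatives were other blocks, all 24 arrays, other scalings, array weights, a trend with robust prior, the median of probe sets, the lowest 40% of genes left out, each line or experiment alone, and leaving out each array.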

Additional observations from a re-analysis of the deposited data

Results flagged for a closer look

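The response to IGF differed between the experiments for 194 genes by limma's interaction term, and among 130 named genes 20 were of this kind. With experiment 2 minus experiment 1, KCNK3 (1.60), ZEB1 (1.48), VIPR1 (1.32), SIGLEC15 (1.31), GBP1 (1.22), EFNB2 (0.88), KRT7 (0.85), DKK1 (0.81), IRS1 (0.75), LIF (0.72), STC2 (0.70) and ENG (0.65) had the higher log2 value in experiment 2. LCN2 (-1.72), AKR1C1 (-1.50), SPP1 (-1.49), CCNG2 (-1.47), HBP1 (-1.27), FRAT2 (-1.03), IRS2 (-0.63) and GLA (-0.60) had the lower one.

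PTX3 read 10.26 on the starved Rab25 array 1-1, apart from the other starved Rab25 arrays at 10.41, 10.44 and 10.41. This was 1 of 60 groups of arrays tested for a single array standing apart, and chance marks about 1 in 20 such groups.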

How the results depend on the processing

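With no replicate block, that is without the experiment term, 52 genes passed for IGF against starvation. With all 24 arrays, where the experiment term was kept, 323 passed. Experiment 2 alone gave 314, Rab25 arrays alone 116, pcDNA arrays alone 16 and a 2-fold minimum 3. Leaving out single arrays gave 369 to 1015, the lowest without the Rab25 and then the pcDNA (441) IGF array of experiment 1. The other settings gave 833 to 1230. Between lines 0 genes differed, except 3 without the Rab25 IGF array of experiment 1 (0 to 3). Between experiments a line by experiment block gave 365, a trend with robust prior 364 and leaving out the lowest 40% of genes 310; single arrays left 35 to 220, and beside those named above the count fell past 1.5 times without starved pcDNA arrays 1-1 (102) and 2-2 (110) and starved Rab25 arrays 2-1 (114), 1-2 (118) and 1-1 (124). Median centring between lines, between experiments and against EGF, and all 24 arrays between lines and against EGF, were added after the data were seen. Against EGF 2 genes passed with a trend and robust prior and 0 otherwise. Signs turned and passed for STC2 in experiment 1 alone (-0.27), and for KCNK3 (0.36) and ZEB1 (0.41) in experiment 2 alone. Among named genes that differed between experiments, the sign also turned without passing, and with no call over both experiments, for VIPR1 (0.25), IRS1 (0.10), LCN2 (-0.06) and AKR1C1 (-0.09) in experiment 2 and GBP1 (-0.30) in experiment 1. Of the 30 largest changes 6 kept the call with no replicate block, 20 with all 24 arrays and 29 with quantile normalization. With no replicate block 3 ATF4, 4 FOXO (falls), 0 ribosome biogenesis, 0 tRNA synthetase and 1 NF-kB list genes were called. The causes were not tested.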

Other observations

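The clock and NRF2 lists were made after the values were seen, so their counts are descriptions. Of 16 circadian clock genes 0 rose and 1 fell with IGF, against 3.69% and 4.54% of all genes. The 1 that fell was BHLHE41, a repressor of clock genes (log2 -0.57). The responses of PER2 and NR1D1, clock repressors, differed between the experiments by 1.04 and -1.25, experiment 2 minus experiment 1 (limma adjusted p = 0.00288 and 0.00283).

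Of 14 NRF2 targets, genes of the oxidative stress defence, 2 rose with IGF over both experiments, against 3.69% of all genes. They were GCLM, a subunit of glutathione synthesis (log2 0.59), and SLC7A11, the cystine transporter (log2 0.53). The list's median was -0.01 in experiment 2 and 0.44 in experiment 1. The response of 6 of the 14 was lower in experiment 2, against 0.637% of all genes. AKR1C1, PIR, GCLC, AKR1C2, AKR1C3 and TALDO1 differed by -1.50, -1.21, -0.97, -0.78, -0.61 and -0.37.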
